A study of Homo sapiens with 12 samples.

Results

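The KDM genes encode histone lysine demethylases, the enzymes that remove methyl groups from lysines of histone tails. The 10 genes described here are KDM1A, KDM2A, KDM2B, KDM3A, KDM4A, KDM4B, KDM4C, KDM5A, KDM5B and KDM6B. They were taken by name from 19775 genes on the array, through probe sets annotated to a single gene symbol, and the brightest probe set over the 12 arrays stood for each gene. Messenger RNA had been measured on Affymetrix HG-U133 Plus 2 arrays in 2 established cell lines of human lung adenocarcinoma with activating EGFR mutations, PC9 and HCC827. The 4 groups, of 3 arrays each, were PC9 in DMSO, PC9 in erlotinib, HCC827 in DMSO and HCC827 in erlotinib. Erlotinib, an inhibitor of the EGFR kinase, was given at 2 micromolar, and DMSO is its solvent. All cells were harvested after 8 days, in RPMI with 10% fetal bovine serum that had been renewed together with the agent after 4 days. The labels give fewer plated cells and smaller dishes for DMSO than for erlotinib, while the series description gives one flask type for every group. Cell density and vessel thus cannot be told apart from the drug. The sources used here do not say whether replicate arrays stem from independent cultures. The p-values therefore reflect only how these samples spread, which may be technical.

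KDM1A removes methyl groups from mono- and dimethylated H3K4 with a flavin cofactor, within CoREST and related corepressor complexes. The other members carry a Jumonji C domain and use iron, oxygen and 2-oxoglutarate: KDM5 enzymes act on H3K4, KDM3 and KDM4 enzymes on H3K9, KDM2 and KDM4 enzymes on H3K36, and KDM6B on H3K27. KDM5A is known from work on drug-tolerant persister cells, including those of PC9 in EGFR inhibitors, and KDM3A and KDM4B are textbook targets of the hypoxia-inducible factors.

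The 10 genes matched RefSeq promoter windows on GRCh38.p14, 16 windows of 300 bases in all (250 before and 50 after a transcript start). The first window of KDM5B, KDM4A and KDM3A is shown because these genes rose in both lines and stand for the KDM5, KDM4 and KDM3 families. Capitals mark ACGTG or GCGTG on either strand, the core of the hypoxia response element. The windows are chr1:202808372-202808671 on the minus strand, chr1:43649899-43650198 on the plus strand and chr2:86441121-86441420 on the plus strand, in the order shown.
KDM5B: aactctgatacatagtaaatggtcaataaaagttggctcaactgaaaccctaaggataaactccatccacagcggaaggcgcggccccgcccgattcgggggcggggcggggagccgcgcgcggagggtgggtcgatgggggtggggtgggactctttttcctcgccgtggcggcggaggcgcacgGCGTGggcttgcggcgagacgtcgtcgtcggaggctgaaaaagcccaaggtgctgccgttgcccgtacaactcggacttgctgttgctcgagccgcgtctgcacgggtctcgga
KDM4A: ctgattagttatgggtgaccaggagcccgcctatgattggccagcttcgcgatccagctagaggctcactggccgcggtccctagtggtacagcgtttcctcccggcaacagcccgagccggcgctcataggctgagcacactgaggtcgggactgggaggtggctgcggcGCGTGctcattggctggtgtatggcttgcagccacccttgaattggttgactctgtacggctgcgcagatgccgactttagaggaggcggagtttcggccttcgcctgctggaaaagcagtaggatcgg
KDM3A: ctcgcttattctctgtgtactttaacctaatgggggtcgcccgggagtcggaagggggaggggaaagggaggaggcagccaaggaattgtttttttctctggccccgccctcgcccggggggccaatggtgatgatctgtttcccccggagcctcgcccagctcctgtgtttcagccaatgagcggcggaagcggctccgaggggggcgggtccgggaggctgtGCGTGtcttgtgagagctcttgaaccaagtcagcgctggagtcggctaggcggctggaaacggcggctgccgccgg
The hypoxia core was present in 14 of the 16 windows, against 48.4% of 35116 RefSeq windows of the same length. The windows were also rich in G and C, with a median of 63.8% (range 53.0 to 84.0%) against 58.7% over all windows, and held a median of 26.5 CpG dinucleotides against 14. The match count was not adjusted for this base composition or for windows that share a gene. KDM2B has 4 of the windows, and the 2 windows of KDM3A overlap and hold the same GCGTG, so the 16 are not independent. CACGTG, the E-box, which overlaps ACGTG, was found in 2 windows (7.3% of all), those of KDM4B and KDM4C. The forkhead core GTAAACA was found in 1 window, of KDM2B (3.4% of all). The cyclic AMP response element TGACGTCA (1.8% of all) and the E2F motifs TTTGGCGC or TTTCCCGC (2.3% of all) were found in 0 of the 16. Each motif was searched on both strands.

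In PC9, 6 of the 10 demethylase genes rose after 8 days of erlotinib, KDM3A, KDM4A, KDM4B, KDM5A, KDM5B and KDM6B, and KDM1A fell. In HCC827 these 6 genes and KDM1A rose. The rises ranged from 1.40-fold (KDM5A) to 2.04-fold (KDM5B) in PC9 and from 1.12-fold (KDM1A) to 1.90-fold (KDM5B) in HCC827. KDM2A, KDM2B and KDM4C did not pass the test in either line. A gene was called at an adjusted p under 0.05 from limma, fitted over 13185 genes on log2 of the signal plus 8. The drug moved much of the transcriptome: 64.7% of these genes were called in PC9, with 36.3% rising and 28.3% falling, and 51.7% were called in HCC827, with 32.2% rising and 19.5% falling. The 10 members had a median log2 change of 0.50 in PC9, where all tested genes had 0.05, and 0.28 in HCC827, where all tested genes had 0.07. Rising in both lines was recorded for 6 of the 10 members and for 20.3% of tested genes. The DMSO and erlotinib arrays did not overlap for 6 members in PC9 (64.9% of tested genes) and for 7 in HCC827 (62.1%). The share of members called in PC9 thus lay near the background, while 6 of 10 rose where the background was 36.3%. In HCC827 7 of 10 rose where it was 32.2%. The members were chosen with earlier results of these data known, so these counts describe them and do not test the group against the background.

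**Figure D1:**
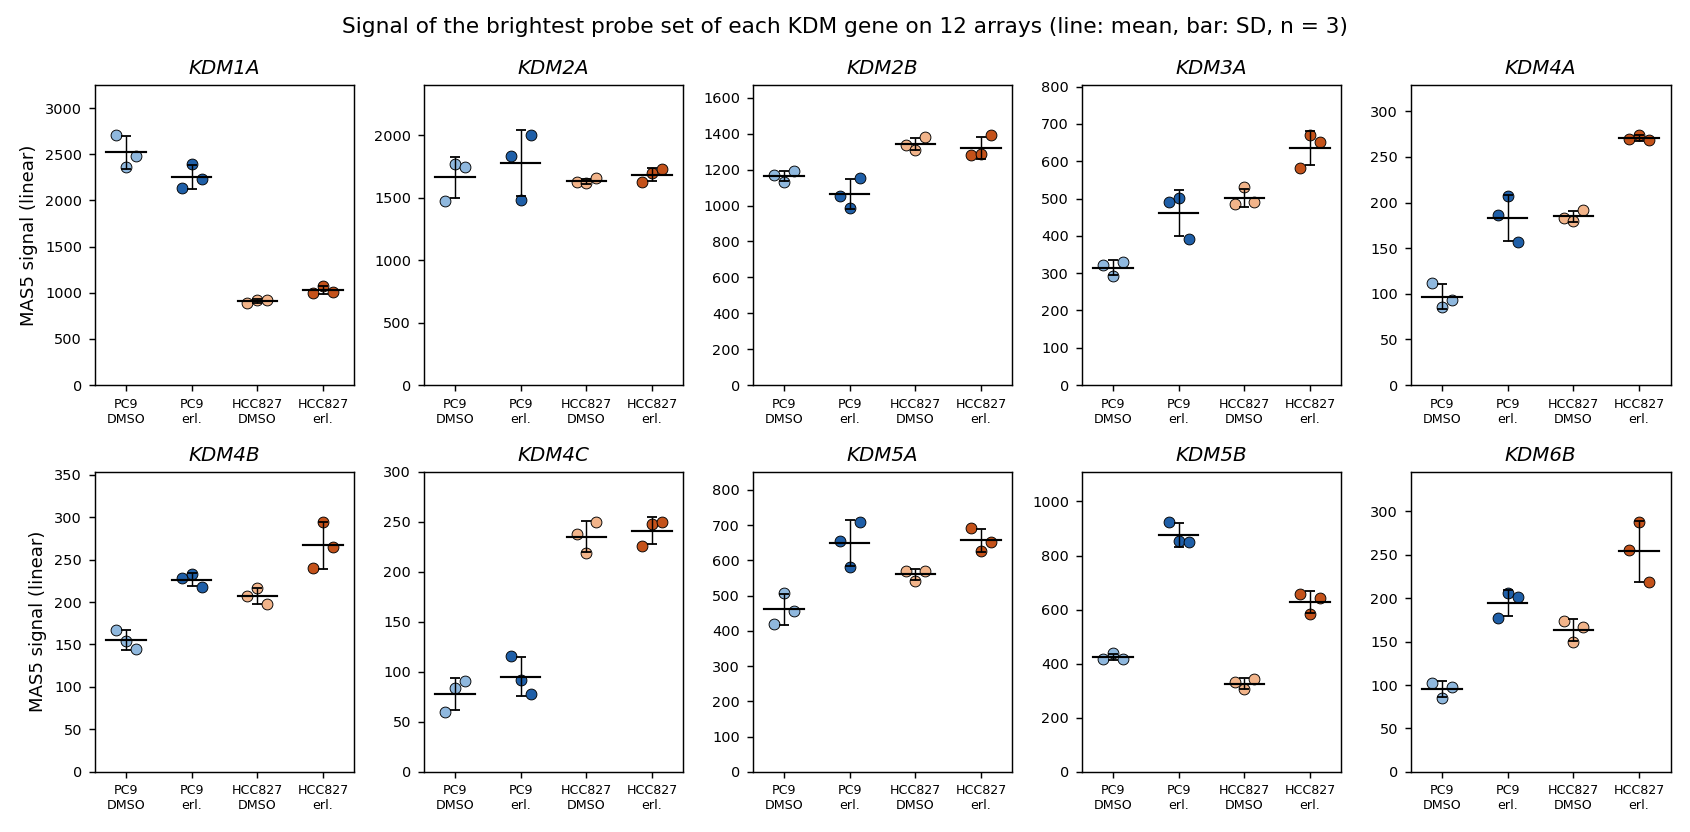
MAS5 signal (linear axis from 0) of the brightest probe set of each KDM gene on every array, with a panel for each gene and a point for each of the 3 arrays of PC9 DMSO, PC9 erlotinib, HCC827 DMSO and HCC827 erlotinib; lines are means and bars are SD. The KDM5B points of erlotinib, from 849 to 925 in PC9 and from 583 to 658 in HCC827, all lie above those of DMSO, while the KDM1A points of PC9 DMSO and erlotinib overlap.

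Within groups, arrays correlated at r = 0.993 to 0.997. Their median signals were 11.1 to 12.5 in PC9 DMSO and 13.9 to 14.5 in PC9 erlotinib, without overlap. They were 12.2 to 12.6 in HCC827 DMSO and 12.6 to 14.2 in HCC827 erlotinib. With 3 arrays a group, precision is limited by their number. The actin 3'/5' signal ratio, which rises with RNA degradation or short labelling products, was 3.03 ± 0.598 (SD, n = 3) in HCC827 erlotinib and 2.17 ± 0.056 in HCC827 DMSO (exact permutation test, two-sided, p = 0.1, the smallest that 3 against 3 arrays allow). In PC9 it was 2.22 ± 0.271 in erlotinib and 2.18 ± 0.152 in DMSO. The 6 epithelial markers EPCAM, KRT7, KRT8, KRT18, KRT19 and CDH1 were bright in every group, with mean signals from 1519 to 3671. Of 12 leukocyte, endothelial and fibroblast markers 8 were under the signal filter in all groups, among them PTPRC, CD14, CD3E, VWF and PDGFRA. The endothelial markers PECAM1 and CDH5 were above it in PC9. There PECAM1 had mean signals of 835 in DMSO and 506 in erlotinib, and CDH5 of 105 and 178. The summed signal of the 12 was 999 to 1071 in PC9 DMSO and 1044 to 1173 in PC9 erlotinib. In HCC827 it was 174 to 193 in DMSO and 643 to 698 in erlotinib. In PC9 3 of the 4 tested markers rose, with LUM by 3.57 ± 0.14 (log2, SE), COL1A1 by 1.93 ± 0.10 and CDH5 by 0.72 ± 0.12, and 1 fell, PECAM1. In HCC827 LUM rose by 3.77 ± 0.14 and COL1A1 by 1.56 ± 0.10, and the other 2, PECAM1 and CDH5, did not pass. PECAM1 had HCC827 means of 6.03 and 6.4 and CDH5 of 1.63 and 3.57 (DMSO first). Both were under the filter there, where a change cannot be measured. LUM passed the filter only through erlotinib, with means of 1.4 and 104 in PC9 and of 6 and 183 in HCC827. The size of its log2 rise thus depends on the constant added to the signal. With the actin ratio as a covariate, 3 members rose in HCC827 instead of 7, and 2555 of all tested genes instead of 4245. The part of the marker differences in the demethylase results was not tested. In bulk RNA a change in the proportion of cell states and a change of RNA per cell cannot be told apart.

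Among the H3K4 demethylases, KDM5B, which removes di- and trimethylation, had the largest change of the 10 members in both lines. Its signal was 419, 438.5 and 418 on the PC9 DMSO arrays and 925, 853 and 849 on the PC9 erlotinib arrays. In HCC827 it was 330.3, 304 and 344 in DMSO and 658, 583 and 644 in erlotinib. Every erlotinib array thus stood above every DMSO array of its line. The means rose from 425 ± 11.6 (SD, n = 3) to 876 ± 43.0 in PC9, a log2 change of 1.03 ± 0.07 (SE, adjusted p = 1.88e-09). In HCC827 they rose from 326 ± 20.2 to 628 ± 39.8, by 0.93 ± 0.07 (adjusted p = 1.51e-08). A larger rise was seen for 9.16% of tested genes in PC9 and 6.67% in HCC827. The changes of the 2 lines differed by 0.10, with an interval of -0.11 to 0.31 (95%), which did not pass the test (adjusted p = 0.425).

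KDM5A, the RBP2 demethylase with the same H3K4 substrates, rose less. Its PC9 signal was 419, 507 and 455.5 in DMSO and 656, 580.1 and 710 in erlotinib. Its HCC827 signal was 570.0, 541 and 569 in DMSO and 692, 626 and 651 in erlotinib. The erlotinib arrays were above the DMSO arrays in both lines, without overlap. The PC9 means rose from 461 ± 44.2 to 649 ± 65.1 (SD, n = 3), by 0.49 ± 0.08 (adjusted p = 6.64e-05). The HCC827 means rose from 560.0 ± 16.6 to 657 ± 33.3, by 0.23 ± 0.08 (adjusted p = 0.0293). That HCC827 call was lost when arrays were centred on their medians (0.15, adjusted p = 0.137), when the actin ratio was a covariate (0.25, adjusted p = 0.144), and when HCC827 DMSO replicate 1, 2 or 3 or HCC827 erlotinib replicate 1 or 3 was left out (adjusted p up to 0.105). It also just missed without the intensity trend in the variances (adjusted p = 0.0502).

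KDM1A, the flavin-dependent H3K4 demethylase, was the only member whose change differed between the lines. On the PC9 arrays its signal was 2709, 2365 and 2486 in DMSO and 2136, 2392 and 2231 in erlotinib. Its HCC827 signal was 892, 916 and 924 in DMSO and 998, 1075 and 1005 in erlotinib. The PC9 groups overlapped, while in HCC827 all erlotinib arrays were above all DMSO arrays. The PC9 means went from 2520 ± 174 to 2253 ± 129 (SD, n = 3), a log2 change of -0.16 ± 0.06 (adjusted p = 0.0247). The HCC827 means went from 911 ± 16.8 to 1026 ± 42.6, a change of 0.17 ± 0.06 (adjusted p = 0.0233). Neither call held without the intensity trend in the variances. The PC9 fall did not pass after quantile normalization (-0.08, adjusted p = 0.187) or without PC9 DMSO replicate 1 (-0.11) or erlotinib replicate 1 (-0.12) or 3 (-0.15). The HCC827 rise did not pass after median centring (adjusted p = 0.309), with the actin ratio as a covariate (0.22, adjusted p = 0.0828), or without HCC827 DMSO replicate 1 or erlotinib replicate 2 (adjusted p up to 0.104). The PC9 change minus the HCC827 change was -0.33 ± 0.08 (adjusted p = 0.0042) and lay between -0.37 and -0.28 when each array was left out in turn. It passed in all 12 of these fits. Over all tested genes 45.2% differed between the lines, against 1 of the 10 members.

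Of the 4 members that act on H3K9, KDM4A, which also acts on H3K36, rose most. Signals in PC9 were 112, 85.0 and 93.4 in DMSO and 186.5, 207 and 156.5 in erlotinib. Signals in HCC827 were 183.5, 180.0 and 191.5 in DMSO and 269.5, 274 and 268 in erlotinib. The treated arrays were above the DMSO arrays in both lines, and the PC9 erlotinib arrays reached the range of HCC827 DMSO. The PC9 means rose from 96.9 ± 14.0 to 183 ± 25.4 (SD, n = 3), by 0.87 ± 0.11 (adjusted p = 2.2e-06). The HCC827 means rose from 185 ± 5.89 to 271 ± 3.02, by 0.53 ± 0.11 (adjusted p = 0.000539). The difference between these changes, 0.34 with an interval of 0.02 to 0.65, did not pass over all genes (adjusted p = 0.0782).

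KDM3A, which removes mono- and dimethylation of H3K9, rose in both lines. In PC9 the arrays read 323, 291.5 and 329.7 in DMSO and 492, 503 and 391 in erlotinib. In HCC827 they read 485, 530.0 and 490.0 in DMSO and 583, 671 and 652 in erlotinib. The groups did not overlap in either line, and PC9 erlotinib replicate 3 lay nearest to the DMSO arrays. The log2 change was 0.53 ± 0.09 in PC9 (means 315 ± 20.4 and 462 ± 61.8, n = 3, adjusted p = 8.33e-05). It was 0.33 ± 0.09 in HCC827 (means 502 ± 24.8 and 635 ± 46.2, adjusted p = 0.00605). In HCC827 the call was lost with the mean of its probe sets (0.14, adjusted p = 0.212), which includes 1 probe set near the bottom of the table. It was also lost with the actin ratio as a covariate (0.18, adjusted p = 0.323).

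KDM4B, which acts on trimethylated H3K9, changed by amounts close to those of KDM3A. The PC9 arrays gave 167, 154 and 145 in DMSO and 228, 233 and 218 in erlotinib, without overlap. The HCC827 arrays gave 207, 217 and 197 in DMSO and 240.1, 295 and 265 in erlotinib, also without overlap. The log2 changes were 0.52 ± 0.09 in PC9 (means 155 ± 11.3 and 226 ± 7.54, SD, n = 3, adjusted p = 5.95e-05) and 0.35 ± 0.09 in HCC827 (means 207 ± 9.70 and 267 ± 27.3, adjusted p = 0.00313). The HCC827 call was lost with the actin ratio as a covariate (0.31, adjusted p = 0.096). Without HCC827 erlotinib replicates 2 and 3, the arrays with the highest actin ratios, the HCC827 calls of KDM1A, KDM3A, KDM4B and KDM5A were lost as well (adjusted p from 0.0699 to 0.249), with log2 changes of 0.13, 0.21, 0.21 and 0.30. That setting was chosen after the data were seen.

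KDM4C, the third KDM4 member here, did not pass. Its PC9 signal was 60.2, 83.5 and 90.5 in DMSO and 116, 91.4 and 77.4 in erlotinib, so the groups overlapped. In HCC827 it was 237, 219 and 249.5 in DMSO and 225, 248 and 250.1 in erlotinib. The log2 changes were 0.26 (interval -0.03 to 0.55, adjusted p = 0.112) in PC9 and 0.03 (interval -0.26 to 0.33, adjusted p = 0.852) in HCC827. The PC9 interval includes rises as large as that of KDM4B. The test in PC9 passed without PC9 DMSO replicate 3 (0.37, adjusted p = 0.044) and without PC9 erlotinib replicate 3 (0.39, adjusted p = 0.0281). It also passed when the probe sets of the gene were averaged (0.25, adjusted p = 0.041).

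The KDM2 genes encode H3K36 demethylases with a CxxC domain that binds unmethylated CpG, and KDM2B is the DNA-binding subunit of the PRC1.1 complex. KDM2A had means of 1664 ± 164 and 1774 ± 264 in PC9 and of 1632 ± 21.6 and 1685 ± 52.8 in HCC827 (SD, n = 3, DMSO first). Its log2 changes, 0.09 (interval -0.10 to 0.27) and 0.05 (interval -0.14 to 0.23), did not pass. Both turned negative with median centring, and the PC9 change passed without erlotinib replicate 2 (0.21, adjusted p = 0.0198). KDM2B had means of 1165 ± 29.0 and 1064 ± 84.7 in PC9 and of 1343 ± 35.9 and 1321 ± 63.3 in HCC827. Its changes were -0.13 ± 0.06 (adjusted p = 0.0655) and -0.02 ± 0.06 (adjusted p = 0.752). In PC9 it passed with median centring (-0.28, adjusted p = 0.0025) and without erlotinib replicate 3 (-0.19, adjusted p = 0.0123).

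KDM6B, the inducible H3K27 demethylase also called JMJD3, rose in both lines. Its PC9 signal was 103, 85.2 and 97.6 in DMSO and 177.5, 206 and 201 in erlotinib. Its HCC827 signal was 174, 149.6 and 167 in DMSO and 256, 288 and 218 in erlotinib. No array of erlotinib was within the DMSO range of its line. The PC9 means were 95.2 ± 9.04 and 195 ± 15.1 (SD, n = 3), a log2 change of 0.97 ± 0.11 (adjusted p = 6.5e-07). The HCC827 means were 164 ± 12.7 and 254 ± 35.0, a change of 0.61 ± 0.11 (adjusted p = 0.000184). A larger rise was seen for 10.0% of tested genes in PC9 and 13.1% in HCC827.

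**Figure D2:**
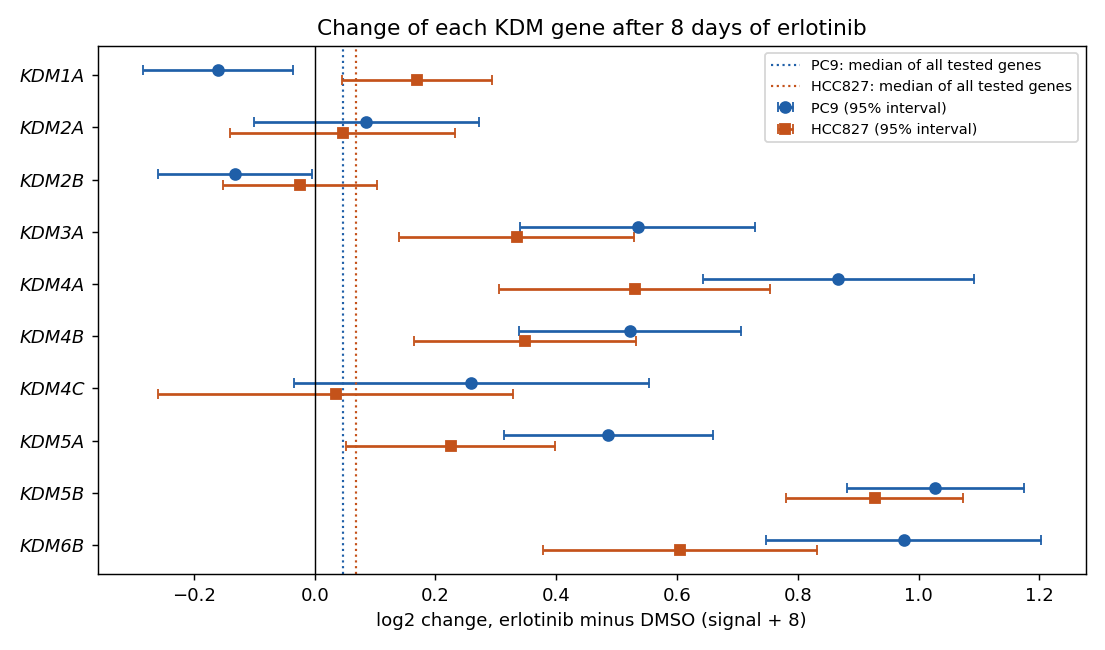
Log2 change of each KDM gene (erlotinib minus DMSO, on signal plus 8) with its 95% interval, PC9 as circles and HCC827 as squares; dotted lines mark the medians of all tested genes, 0.05 and 0.07. KDM5B lies farthest right in HCC827 at 0.93, with 1.03 in PC9, and KDM1A is the only gene with points on opposite sides of 0 whose changes both passed.

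The log2 change was more positive in PC9 than in HCC827 for 8 of the 10 members, the exceptions being KDM1A and KDM2B, and for 48.1% of all tested genes. The 8 include KDM2A and KDM4C, which passed in neither line. For single members other than KDM1A the difference did not pass, with adjusted p from 0.0574 (KDM6B, 0.37 with an interval of 0.05 to 0.69) to 0.818 (KDM2A). The intervals of KDM4A, KDM5A and KDM6B lay above 0 before adjustment over all genes, so smaller rises in HCC827 were not shown to be absent. When arrays were left out in turn, the difference passed in 4 of 12 fits for KDM6B, in 2 for KDM4A, in 2 for KDM5A and in 1 for KDM3A.

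The untreated lines themselves differed in 9 of the 10 genes, where 76.2% of tested genes differed. The arrays of the 2 DMSO groups did not overlap for these 9, nor for 78.5% of tested genes. KDM1A was 2.75-fold higher in PC9 (log2 1.46 ± 0.06, adjusted p = 8.09e-13) and KDM5B 1.30-fold higher (0.38 ± 0.07, adjusted p = 0.000118). The KDM5B difference did not pass with its next brightest probe set (0.12, adjusted p = 0.180). The other 7 were lower in PC9: KDM4C by 2.86-fold (-1.51 ± 0.14), KDM4A by 1.85-fold (-0.89 ± 0.11), KDM6B by 1.66-fold (-0.73 ± 0.11), KDM3A by 1.58-fold (-0.66 ± 0.09), KDM4B by 1.32-fold (-0.40 ± 0.09), KDM5A by 1.22-fold (-0.28 ± 0.08) and KDM2B by 1.15-fold (-0.20 ± 0.06). KDM2A did not pass, at 0.02 with an interval of -0.16 to 0.21. KDM3A, KDM4A, KDM4B, KDM5A and KDM6B were thus lower in PC9 than in HCC827 in DMSO and rose in both lines. The order of the groups for each of these 5 genes was the same at its low end, with PC9 DMSO lowest, and at its high end, with HCC827 erlotinib highest. For KDM5A the means of PC9 and HCC827 erlotinib, 649 and 657, lay within their spread. For KDM5B it was HCC827 DMSO lowest and PC9 erlotinib highest.

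The 10 genes are covered by 36 probe sets, of which 27 passed the signal filter and 9 did not. The 17 tested probe sets other than the brightest belong to 7 members; KDM1A, KDM2B and KDM3A have none. Tested singly over 26109 probe sets, 15 of the 17 rose in PC9, 0 fell and 2 did not pass. Of all probe sets tested this way, 34.0% rose and 26.2% fell in PC9. In HCC827 9 of the 17 rose, 0 fell and 8 did not pass, where 26.2% of all probe sets rose and 21.8% fell. Probe sets of a gene share its transcript and are not replicates. The other KDM5B probe sets gave log2 rises of 0.99, 1.07 and 0.81 in PC9 and of 0.79, 1.04 and 0.73 in HCC827. The other KDM5A probe sets gave 0.34 to 0.73 in PC9 and 0.18 to 0.43 in HCC827, where 226367_at did not pass (0.18, adjusted p = 0.267). The other KDM4B probe sets gave 0.34 to 0.50 in PC9 and 0.12 to 0.34 in HCC827. Of these only 230126_s_at passed in HCC827 (0.23, adjusted p = 0.0445). The second KDM4A probe set gave 0.84 and 0.37, and its changes differed between the lines (0.47, adjusted p = 0.0376). The same held for 1 further KDM5A probe set (0.48 and 0.21, difference 0.27, adjusted p = 0.0358).

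Probe sets disagreed for KDM4C, KDM2A and, between the untreated lines, KDM5A. The second KDM4C probe set, 244385_at, had mean signals of 35.8 and 61.0 in PC9 and of 1.93 and 2.93 in HCC827, the latter near the bottom of the table. It rose in PC9 by 0.66 ± 0.14 (adjusted p = 0.000614), and it was higher in untreated PC9 than in untreated HCC827 (2.14), opposite to the brightest probe set of the gene (-1.51). For KDM2A, 208989_s_at was 0.95 higher in untreated PC9, while 208988_at showed 0.02. For KDM5A, 230226_s_at was 0.38 higher in untreated PC9, opposite to 226371_at (-0.28). The level of these 3 genes in one line relative to the other therefore depends on the probe set. KDM6B kept its direction with the other probe sets (0.81 and 0.66 for one, 0.61 and 0.28 for the other), but the last value, in HCC827, did not pass (adjusted p = 0.0789).

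**Figure D3:**
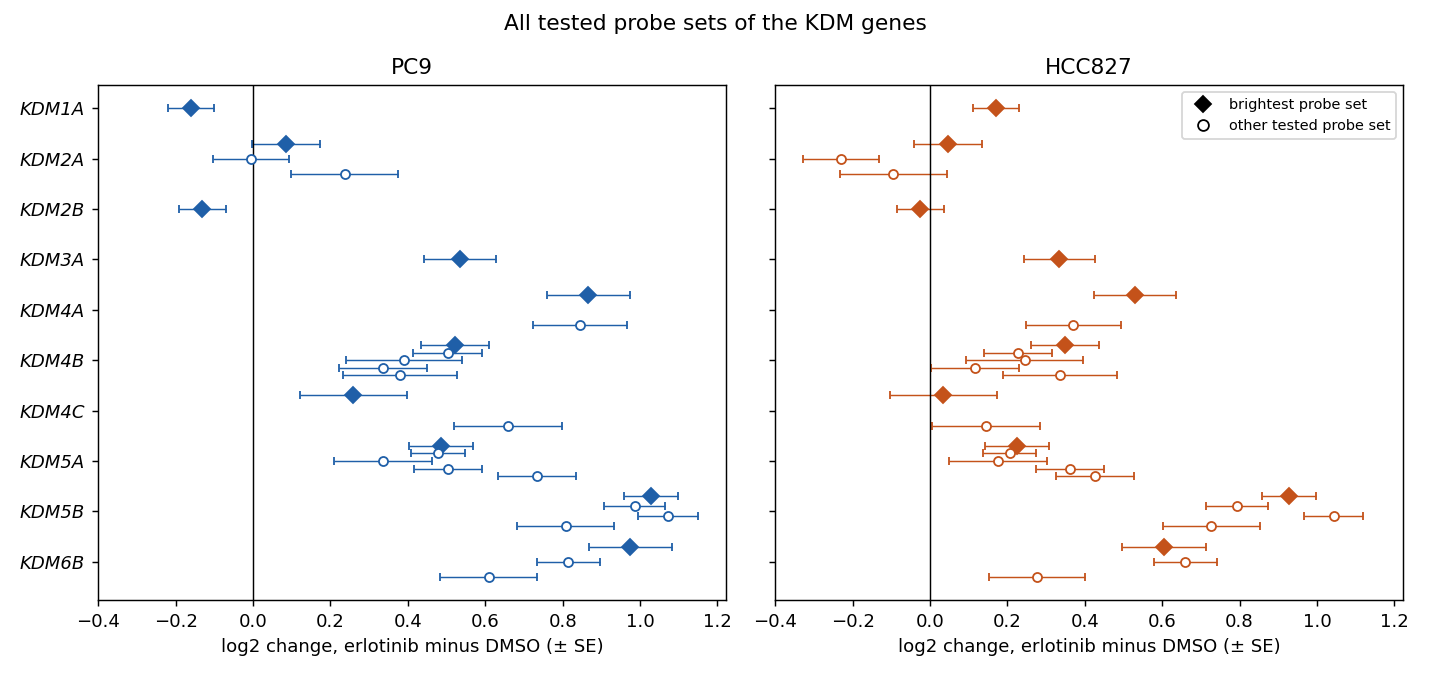
Log2 change (erlotinib minus DMSO) with its SE for all 27 tested probe sets of the KDM genes, PC9 on the left and HCC827 on the right; filled diamonds are the brightest probe set of a gene and open circles the others. The 4 KDM5B probe sets range from 0.81 to 1.07 in PC9 and from 0.73 to 1.04 in HCC827, and those of KDM2A lie on both sides of 0.

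The remaining lysine demethylases and Jumonji proteins changed in both directions in PC9. Of 14 tested, 6 rose and 3 fell in PC9 (median 0.02), and 4 rose and 0 fell in HCC827 (median 0.0049). Over all tested genes 36.3% rose and 28.3% fell in PC9, and 32.2% rose and 19.5% fell in HCC827. The counts of rises thus lay near the background in both lines. KDM7A, an H3K9 and H3K27 demethylase, rose from 27.7 ± 1.63 to 121 ± 15.3 in PC9 (1.85 ± 0.11) and from 62.2 ± 4.71 to 160.1 ± 11.5 in HCC827 (1.26 ± 0.11). KDM6A, a close relative of KDM6B, rose from 39.3 ± 7.09 to 59.6 ± 9.70 in PC9 (0.52 ± 0.13) and from 131 ± 11.2 to 271 ± 15.7 in HCC827 (1.01 ± 0.13). KDM1B, the second flavin-dependent demethylase, rose in both lines (0.51 and 0.38), in contrast to the opposite signs of KDM1A. JMJD1C, a KDM3-family protein, also rose in both (0.60 and 0.22). KDM3B (0.29) and the PRC2 subunit JARID2 (0.59) rose in PC9 and did not pass in HCC827 (-0.12 and 0.07). JMJD6 (-0.51), KDM4D (-0.48) and the ribosomal oxygenase RIOX1 (-0.37) fell in PC9 and did not pass in HCC827 (0.20, -0.28 and -0.06).

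The partners of the KDM5 and KDM1A complexes were measured too. Their counts stand beside 36.3% rising and 28.3% falling over all tested genes in PC9, and 32.2% and 19.5% in HCC827. Of 6 SIN3-complex partners of KDM5A and KDM5B, 4 rose and 0 fell in PC9 (median 0.43), and 2 rose and 0 fell in HCC827 (median 0.11). The scaffold SIN3B rose by 0.95 ± 0.12 and 0.91 ± 0.12, and GATAD1, a subunit of the same complex, by 0.49 and 0.19. PHF12 rose by 0.45 in PC9. Of 10 tested KDM1A partners, 5 rose and 3 fell in PC9 and 4 rose and 1 fell in HCC827. PHF21A, the reader of unmethylated H3K4, rose by 0.62 and 0.84, RCOR3 by 0.69 and 0.29, HMG20B by 0.27 and 0.30, and the corepressor RCOR1 changed by -0.16 and -0.39. ZMYM3 rose by 0.61 in PC9. Of 8 tested PRC1.1 partners of KDM2B, 3 rose and 3 fell in PC9 and 2 rose and 2 fell in HCC827. One of those that did not pass, BCOR, was tested only through its signal in HCC827 (means 501 and 478). Its mean signal was 0.73 in both PC9 groups, at the bottom of the table, where a change cannot be measured. The ubiquitin ligase RING1 (0.81 and 0.43) and BCORL1 (0.34 and 0.44) rose and PCGF1 (-0.31 and -0.30) fell in both lines, while USP7 fell in PC9 (-0.42).

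The methyltransferases that write the marks these enzymes erase are given by mark. The background was 36.3% rising and 28.3% falling over all tested genes in PC9, and 32.2% and 19.5% in HCC827. Of 11 H3K4 methyltransferases and core subunits, 3 rose and 3 fell in PC9 and 3 rose and 1 fell in HCC827. KMT2A (0.48 and 0.28) and MEN1 (0.39 and 0.37) rose in both lines, KMT2C (0.50) rose and WDR5 (-0.49) fell in PC9, and RBBP5 (-0.49) fell in HCC827. Of 6 H3K9 methyltransferases, 1 rose and 2 fell in PC9 and 2 rose and 2 fell in HCC827. SUV39H1 changed by -0.77 and -0.42 and SUV39H2 by -0.88 and -0.64, both falls, whereas SETDB1 rose by 0.47 in each line. Of the 6 PRC2 genes, which write H3K27 methylation, EZH1 rose (0.91 and 0.84), EZH2 fell (-0.59 and -0.32) and SUZ12 fell (-0.36 and -0.39). RBBP4 fell in HCC827 (-0.49). In all, 1 PRC2 gene rose and 2 fell in PC9, and 1 rose and 4 fell in HCC827. Of 4 tested H3K36 methyltransferases, 1 fell in PC9, NSD2 (-0.70), and 2 fell in HCC827, NSD2 (-0.19) and NSD3 (-0.23).

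**Figure D4:**
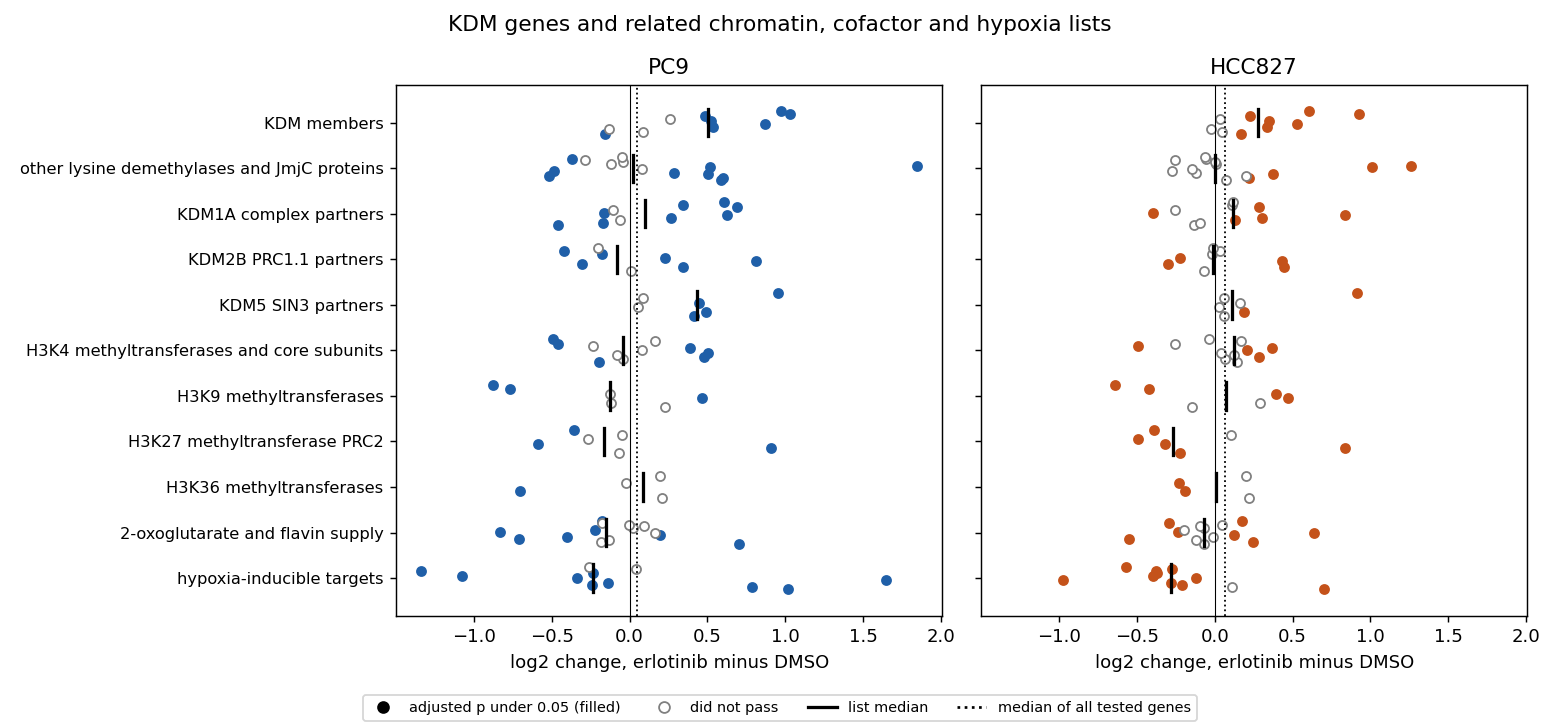
Log2 change (erlotinib minus DMSO) of each tested gene of the KDM group and of 10 related lists, PC9 on the left and HCC827 on the right; filled points passed the test, bars are list medians and the dotted line is the median of all tested genes. The bar of the KDM genes lies at 0.50 in PC9 and 0.28 in HCC827, and the highest point of the other demethylases is KDM7A at 1.85 and 1.26.

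Genes for the cofactors and for oxygen sensing were counted as well. The shares over all tested genes were 36.3% rising and 28.3% falling in PC9, and 32.2% and 19.5% in HCC827. Of 14 tested genes of 2-oxoglutarate and flavin supply, 2 rose and 5 fell in PC9 (median -0.15) and 4 rose and 3 fell in HCC827 (median -0.07). In PC9 IDH3A (-0.83) and GOT1 (-0.71), which make 2-oxoglutarate in the citric acid cycle or use it in transamination, fell, and D2HGDH (0.70) rose. In HCC827 IDH2 (0.64) rose, and GOT1 (-0.55) and the riboflavin kinase RFK (-0.29) fell. Of 11 tested hypoxia-inducible targets, 3 rose and 6 fell in PC9 (median -0.24) and 1 rose and 9 fell in HCC827 (median -0.28). PDK1 (-1.34 and -0.37) and NDRG1 (-1.07 and -0.39) fell in both lines, VEGFA fell in HCC827 (-0.57), and ADM rose in both (1.02 and 0.70). EGLN3, a prolyl hydroxylase that is itself hypoxia-inducible, rose in PC9 (1.65 ± 0.08) and fell in HCC827 (-0.97 ± 0.08). KDM3A and KDM4B, the background hypoxia targets among the members, rose in both lines (above), though their HCC827 calls were lost with the actin ratio as a covariate. A link between their changes and those of this list was not tested.

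The counts of these related lists also depended on the settings. With median centring, 5 of the other demethylases, 4 PRC2 genes and 8 cofactor genes fell in PC9. With the actin ratio as a covariate, 0 of the H3K4 and 0 of the H3K9 methyltransferase genes rose in HCC827, 1 SIN3 partner and 1 KDM1A partner rose, 2 PRC2 genes fell and 5 hypoxia targets fell. When probe sets were averaged per gene, 2 of the other demethylases fell in HCC827.

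The genes whose log2 signals followed KDM5B most closely over the 12 arrays, after each gene was centred on its mean, were CRISPLD2, AGO4 and PTCH1. Their root mean square differences from KDM5B were 0.10, 0.12 and 0.12, where the median over all genes was 0.64. AGO4, an Argonaute protein of the microRNA pathway, rose by 1.04 and 1.24, and PTCH1, the Hedgehog receptor, by 1.07 and 0.96. For KDM6B the closest were HDAC6, RILPL1 and PCK2, at 0.11, 0.12 and 0.13 (median over all genes 0.61). HDAC6, a cytoplasmic deacetylase, rose by 0.88 and 0.60. The 12 arrays fall into 4 groups, so the likeness mostly compares group means.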

How the data were processed

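Total RNA of 12 samples (3 in each of 4 groups) had been amplified and biotin-labelled with NuGEN reagents, per the labels. The authors deposited linear intensity values, 1 for every probe set on each array. MAS5 produced them, per the submitters' processing notes (version not given). In the values each array has the same 2% trimmed mean of 150. Detection calls were not used here, so the precision of a value rests on its signal over background and on the number of arrays.

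Of 54675 probe sets, 62 are controls, 41091 carry 1 gene symbol and 1801 several. The platform annotation gave the symbols, 41037 matched by gene ID and 0 were updated. The brightest probe set by mean log2 signal stood for a gene. Testing required a group mean of 13 or more, the table's median, in 1 or more groups. Values were log2(signal + 8), so fold changes of dim genes are understated. Fold changes in the text are antilogs of these log2 changes, not ratios of the mean signals. limma 3.58.1 (R 4.3.3) fitted 1 mean per group with an intensity trend in eBayes over all 12 arrays, and p-values were Benjamini-Hochberg adjusted over 13185 genes.

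The members and lists were chosen with earlier results of these data known. Named genes were all members, every called gene of the other demethylases, up to 3 called genes per line with the largest changes of each other list, and the 3 genes most like each of the 2 members with the largest changes. A gene named for 1 line may be given in both.

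Replicate numbers did not pair the samples: deviations of same-numbered arrays correlated at -0.25 to -0.02 in PC9 and 0.01 to 0.13 in HCC827. Alternatives were another constant, quantile normalization, median centring, other filters, the mean of all probe sets or probe sets singly, no trend, the replicate block, the actin ratio as a covariate, the 6 arrays of a contrast, and each array left out.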

Additional observations from a re-analysis of the deposited data

Results flagged for a closer look

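The PC9 change minus the HCC827 change passed the test (limma, adjusted p under 0.05) for 27 of the 61 named genes, where 45.2% of all tested genes passed. Among the members this was KDM1A, with a difference of -0.3301 on the log2 scale (adjusted p = 0.0042), which fell in PC9 and rose in HCC827. Among the other demethylases and Jumonji proteins the differences were KDM7A (0.5875), JMJD1C (0.3793), JARID2 (0.5126), KDM3B (0.4088), KDM6A (-0.4924), JMJD6 (-0.7157) and RIOX1 (-0.3135), where a positive value is a change that was more positive in PC9. KDM6A rose in both lines, and more so in HCC827. Among the partners of KDM1A, KDM2B and the KDM5 enzymes they were RCOR3 (0.4042), ZMYM3 (0.4883), RCOR1 (0.2287), RING1 (0.3762), USP7 (-0.459), GATAD1 (0.301) and PHF12 (0.2848). Among the methyltransferases they were KMT2C (0.4592), WDR5 (-0.4512), EZH2 (-0.2691) and NSD2 (-0.5162).

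The cofactor genes gave IDH3A (-0.602) and D2HGDH (0.7729), and the hypoxia targets gave EGLN3 (2.6198), PDK1 (-0.9648) and NDRG1 (-0.6805). EGLN3 had the largest difference of the 27, since it rose in PC9 and fell in HCC827. Of the cell type markers, the differences were KRT8 (0.3458), COL1A1 (0.3616) and CDH5 (0.462). CDH5 had HCC827 mean signals of 1.63 in DMSO and 3.57 in erlotinib, under the filter, where a change cannot be measured. Its value, though counted among the 27, therefore does not show that its change differed between the lines.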

How the results depend on the processing

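In every alternative that gives a gene 1 value, KDM5B, KDM4A and KDM6B kept their calls in both lines, and KDM3A, KDM4B and KDM5A kept theirs in PC9. Of the 17 other probe sets tested singly, 8 did not pass in HCC827. Among them were 212495_at, 215616_s_at and 212492_s_at of KDM4B, 226367_at of KDM5A and 213146_at of KDM6B. The count of members rising in HCC827, 7, became 3 with the actin ratio as a covariate and 3 without HCC827 erlotinib arrays 2 and 3 together, a setting chosen after seeing the data, in which the single remaining array is taken to vary as the other groups do. KDM1A, KDM3A, KDM4B and KDM5A lost their calls in both. Their log2 changes were 0.17, 0.33, 0.35 and 0.23 as reported, 0.22, 0.18, 0.31 and 0.25 with the actin ratio, and 0.13, 0.21, 0.21 and 0.30 without the 2 arrays. Over all genes the calls in HCC827 went from 6813 to 4149 and 4409. The cause was not tested. The count of members differing between the lines, 1, became 2 with probe sets averaged, 4 with probe sets tested singly, and 1 to 3 when each array was left out. KDM4C is among those 4 only through 244385_at (0.51, adjusted p = 0.0472). That probe set had HCC827 means of 1.93 and 2.93, under the filter. With the replicate block, 6 members rose in PC9 and 5 in HCC827 (KDM1A and KDM5A lost), KDM1A did not pass in PC9, 1 differed between the lines and 9 between the untreated lines.

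With 1 value a gene, direction turned for KDM2A and KDM4C and for no other member. Among single probe sets it also turned for KDM5A between the untreated lines (0.38 against -0.28). For KDM2A in PC9 the log2 change was -0.0612 with median centring, -0.0050 with the next brightest probe set and -0.0069 to 0.2080 leaving out arrays. For KDM2A in HCC827 it was -0.0286 with median centring, -0.0924 with all its probe sets averaged, -0.0640 with the actin ratio, -0.0042 without the 2 arrays and -0.2289 with the next brightest probe set. Its difference between the lines was -0.0327 with median centring and -0.0531 to 0.1617 leaving out arrays, and its untreated difference was -0.0988 with quantile normalization and -0.0239 to 0.1077 leaving out arrays. For KDM4C in HCC827 the change was -0.0400 with median centring, -0.2842 with the actin ratio, -0.0578 without the 2 arrays and -0.0141 to 0.0812 leaving out arrays. Between the untreated lines it reached 0.1197 when all its probe sets were averaged, and 2.1386 with the next brightest probe set. The cause was not tested. With median centring, the all-gene median change moved by -0.15 in PC9 and -0.07 in HCC827, and the share of calls that were higher went from 56.2% to 41.6% and from 62.3% to 50.4%. The 6 arrays of a contrast alone were not run for the difference between lines. Probe sets near the bottom of the table, such as the second KDM4C probe set in HCC827, limit what can be measured.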
